A study of Mus musculus with 6 samples.

Results

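Zinc finger genes of the Zfp series were followed in day 4 (D4) embryoid bodies (EBs), the floating aggregates in which mouse embryonic stem cells (mESCs) differentiate. Genes were taken by symbol, Zfp followed by digits only, with Zfp42 and Zfp703 left out, and by a mean normalised count of at least 100 over the 6 libraries. Of 331 such symbols in the table, 170 met that mean, out of 23353 genes listed. The genes were thus chosen by their level, which is given here as a description. The 2 groups were EBs of the W9.5 mESC line (Wildtype, 3 libraries) and EBs of Evx1Δfs clone 14 (EVX1-Δfs, 3 libraries), a CRISPR-Cas9 derivative of W9.5 with frameshift deletions in the homeodomain exon of Evx1. Both lines grew as EBs for 4 days in serum medium that lacked LIF, with no other agent. EVX1-Δfs was a line from 1 clone, and the 3 replicates of each line were 3 differentiations started on different days, with the lines compared set up on the same day. That equal replicate numbers mark the same day was inferred and is not stated. The p-values therefore measure the spread between differentiations and not between clones.

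Most Zfp genes encode proteins with tandem C2H2 zinc fingers, in which a pair of cysteines and a pair of histidines hold a zinc ion, and successive fingers read successive short stretches of DNA. A large mammalian subfamily also carries a KRAB box, which recruits the corepressor TRIM28 (KAP1), the H3K9 methyltransferase SETDB1 and HP1 proteins to silence chromatin. In ES cells and the early embryo such proteins are known for repressing retrotransposons and for keeping imprints. Other members have no KRAB box and act as activators, chromatin cofactors, RNA-binding proteins or ubiquitin ligases.

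The names were checked against gene models of GENCODE (release M1, genome build NCBIM37, also called mm9), where 168 of the 170 symbols were found on 20 chromosomes, 49 of them on chromosome 7. At least 1 C2H2 finger was found by pattern in all but 6 of the 168 proteins (Zfp36, Zfp185, Zfp259, Zfp330, Zfp365 and Zfp839), with up to 36 fingers. A KRAB box was found in 53 members. Diverged boxes can escape the pattern, so the other 117 are named genes with no KRAB box found. Zfp445, a known KRAB-box gene, is among those 117. So are Zfp383 and Zfp862, which have no gene model here and could not be searched for a box. The mean level ran from 101 to 5618, with a median of 274. Just inside the limit were Zfp94 (101), Zfp579 (104) and Zfp397 (107), and just outside it Zfp580 (99.9), Zfp667 (97.9) and Zfp37 (95.9).

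The coding sequence of a finger shows how far apart members can be in base composition while the protein motif is shared. For each gene called in the comparison described further on that held a finger with the canonical linker to the next finger, the 84 bases from the first cysteine codon of its first such finger are given, read 5′ to 3′ on the coding strand of NCBIM37. Capitals mark the codons of the cysteine pair and the histidine pair. The first 6 genes were higher in EVX1-Δfs and the last was lower.
Zfp868, chr8:72135946-72136029, minus strand: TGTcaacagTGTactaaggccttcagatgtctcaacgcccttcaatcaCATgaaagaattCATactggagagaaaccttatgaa
Zfp26, chr9:20242424-20242507, minus strand: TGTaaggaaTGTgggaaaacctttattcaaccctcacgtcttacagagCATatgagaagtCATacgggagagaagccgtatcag
Zfp266, chr9:20304040-20304123, minus strand: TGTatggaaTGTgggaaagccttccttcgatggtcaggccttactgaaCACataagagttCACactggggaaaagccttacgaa
Zfp62, chr11:49029045-49029128, plus strand: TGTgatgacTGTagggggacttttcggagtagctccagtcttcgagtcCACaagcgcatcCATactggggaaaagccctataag
Zfp871, chr17:32912395-32912478, minus strand: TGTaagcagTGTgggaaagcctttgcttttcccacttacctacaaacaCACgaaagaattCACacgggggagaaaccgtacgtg
Zfp317, chr9:19451341-19451424, plus strand: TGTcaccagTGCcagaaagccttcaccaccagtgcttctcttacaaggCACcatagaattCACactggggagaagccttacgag
Zfp628, chr7:4870488-4870571, plus strand: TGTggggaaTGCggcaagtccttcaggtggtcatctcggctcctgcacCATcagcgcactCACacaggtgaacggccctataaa

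All 7 stretches lie in coding exons. Within the printed stretches, G or C stood at the third codon position in 28.6% (Zfp868) to 57.1% (Zfp317) of codons in the 6 higher genes. In the printed stretch of Zfp628 it was 60.7%, close to Zfp317. Over all linked fingers of each gene, G or C stood at the third codon position in 28.6% of codons in Zfp868, 36.5% in Zfp26, 42.9% in Zfp266, 46.7% in Zfp62, 51.4% in Zfp871 and 52.0% in Zfp317, against 74.1% in Zfp628. Among the 98 members with a linked finger this share ran from 21.9% to 92.9%, with a median of 60.9%. Its Spearman correlation with the log2 fold change (EVX1-Δfs over Wildtype) was -0.70 across those 98 genes, which share the same 6 libraries.

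The libraries held 7597879 to 9914471 reads assigned to genes, with 15998 to 16479 genes detected. Evx1 itself differed by -0.02 on the log2 scale (adjusted p = 0.950, limma), so its read count does not check a frameshift edit. Among markers of nascent mesoderm, 5 of 7 fell in EVX1-Δfs (T, Mixl1, Eomes, Mesp1 and Wnt3, adjusted p at most 0.0194, limma), and their summed level was 14290 to 17126 in Wildtype and 9918 to 12483 in EVX1-Δfs. Of 4 haematoendothelial markers 2 fell (summed level 2592 to 3393 in Wildtype, 1458 to 1691 in EVX1-Δfs), and of 4 definitive endoderm markers 3 rose (352 to 529, then 583 to 919). Of 11 markers of pluripotency and epiblast 2 rose, with sums of 15436 to 22849 and 19344 to 23490 that overlapped. None of the 2 neurectoderm markers tested was called (sums of the 4 listed 2034 to 2671 and 2275 to 2486). Nes, with means of 2397 and 2384, made up most of those sums. The other marker tested, Pax6, was at 3.83, 7.96 and 11.5 in Wildtype and 14.9, 16.9 and 27.6 in EVX1-Δfs. Its groups did not overlap, with a log2 fold change of 1.31 ± 0.44 (adjusted p = 0.0803, limma). The 6 visceral endoderm markers summed to 10.6 to 42.4 in Wildtype and 28.2 to 47.6 in EVX1-Δfs, and Afp was listed at 0 in all 3 Wildtype libraries. Only 1 of these 6, Cubn, was tested, with a log2 fold change of 0.21 ± 0.63 (adjusted p = 0.872, limma). With the replicate number as a block, 3 nascent mesoderm, 2 haematoendothelial, 1 definitive endoderm and 0 pluripotency markers were called. The part of these shifts in the Zfp results was not tested.

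Of the 170 Zfp genes, 11 were upregulated (6.47%) and 2 were downregulated (1.18%) in EVX1-Δfs EBs. Over all 13136 genes tested the shares were 2.08% higher and 2.95% lower. Over the 9238 of them with a mean of at least 100, the limit set for the Zfp genes, they were 2.22% and 3.77%. Calls were made at an adjusted p under 0.05 in limma on log2(normalised count + 1), with Benjamini-Hochberg adjustment over all genes tested, and all 170 passed the filter on low values. The median log2 fold change of the 170 genes was 0.03, against 0.00 over all genes tested and -0.03 over those 9238. Of the 170 genes, 92 were above 0 and 78 below. Fold changes ran from -0.70 to 0.75. At an unadjusted p under 0.05 (limma) there were 51 of the 170 genes, against 3028 of the 13136 genes tested and 2415 of those 9238. In bulk EBs, fewer cells of a type and less RNA per cell cannot be told apart.

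Adding the replicate number to the fit lowered the counts. With that number as a block, limma called 2 members higher (Zfp871 and Zfp317, 1.18%) and 1 lower (Zfp628, 0.588%), against 0.579% and 1.11% of all genes tested. Without the block, edgeR called 12 higher and 2 lower (2.39% and 2.91% of all genes tested), and so did DESeq2 (2.44% and 4.45% of the 11623 genes it gave an adjusted p). The number of calls also rested on single libraries. Without EVX1-Δfs replicate 1 only Zfp871 was called higher. Without Wildtype replicate 3 the higher calls were Zfp266 and Zfp317, and without EVX1-Δfs replicate 3 they were Zfp266 and Zfp871. Without Wildtype replicate 1 there were 6. Among the 3 Wildtype and 3 EVX1-Δfs values, 27 genes were higher with no overlap of the groups (15.9%, against 12.2% of all genes tested) and 25 were lower with no overlap (14.7%, against 14.7%). Of the 9238 genes tested with a mean of at least 100, 1042 were higher and 1675 lower with no overlap.

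**Figure D1:**
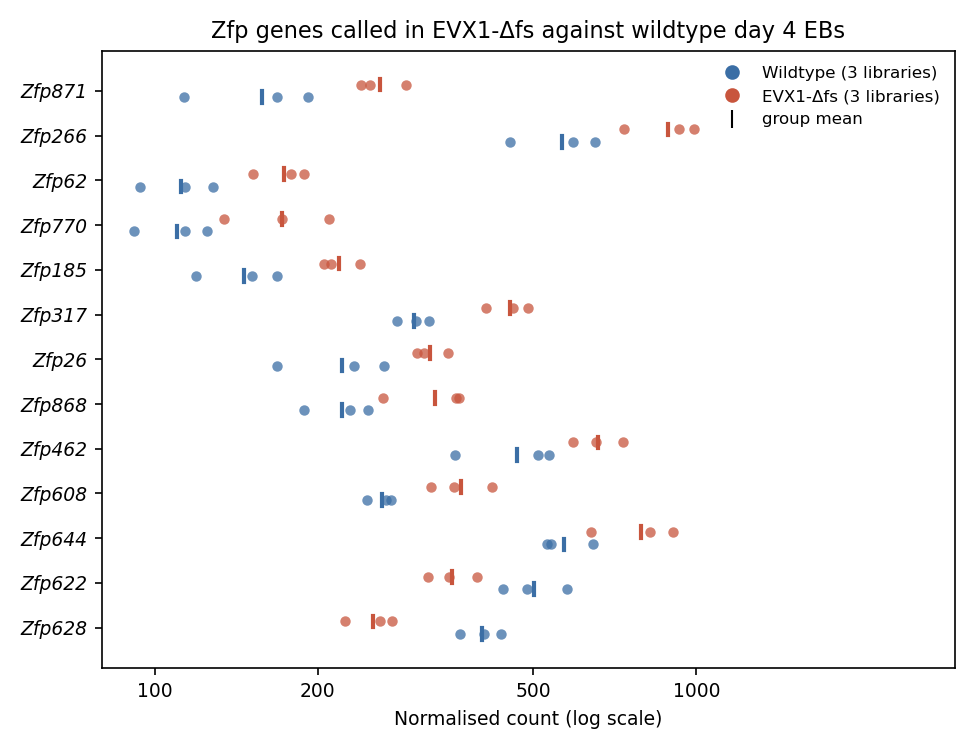
Normalised count on a log axis of the 13 called Zfp genes in each of the 3 Wildtype and 3 EVX1-Δfs libraries (points) with the group means (bars). The ranges of the groups are apart for every gene shown except Zfp644, where the lowest EVX1-Δfs value (639) lies under the highest Wildtype value (643).

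KRAB-box genes made up 5 of the 11 upregulated members. Zfp871 (chr17:32908181-32925232), with 15 fingers, had normalised counts of 168, 192 and 113 in Wildtype replicates 1 to 3 and of 249, 291 and 240.1 in EVX1-Δfs. All 3 edited libraries lay above all 3 Wildtype libraries. The log2 fold change was 0.75 ± 0.17 (SE, n = 3 per group, adjusted p = 0.0168, limma), and 0.0344 with the replicate block.

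Zfp266 (chr9:20299512-20325861), with 9 fingers, stood at 591, 650.4 and 452 in Wildtype and at 989.7, 734 and 931 in EVX1-Δfs. Replicate 2 was the highest Wildtype library and the lowest edited one, and the groups did not overlap. Its log2 fold change was 0.65 ± 0.14 (adjusted p = 0.0109, limma), with an adjusted p of 0.0515 under the replicate block.

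Zfp317 (chr9:19445668-19452492), with 13 fingers, was at 304, 320.3 and 281 in Wildtype and 488, 409 and 459 in EVX1-Δfs. It rose by 0.58 ± 0.13 on the log2 scale (adjusted p = 0.0135, and 0.0434 with the replicate block, limma). Zfp317 was the only member called higher in limma both with the replicate block and with trends in GC content and length removed.

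Zfp26 and Zfp868 complete the KRAB-box calls. Zfp26 (chr9:20237416-20264606), a gene of 22 fingers, was at 233, 265 and 168 in Wildtype and 348, 306 and 314 in EVX1-Δfs. Exons of another gene on the opposite strand cover 18.6% of its exons. The counting is stated only as standard settings, and whether reads of that partner are included was not tested. Zfp868 (chr8:72134756-72149447), of 9 fingers, was at 248, 229 and 189 in Wildtype and 359, 264 and 364 in EVX1-Δfs, and shares 6.52% of its 50-base words with its neighbour Zfp869, which leaves its count uncertain to that extent. Neither gene's groups overlapped, and each rose by 0.56 (SE 0.16 for Zfp26, 0.15 for Zfp868, adjusted p = 0.0406 and 0.0373, limma). With the replicate number as a block their adjusted p was 0.0734 and 0.0762.

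The other 6 upregulated genes had no KRAB box found. Zfp462, a protein of 33 fingers that works with HP1 and H3K9 methyltransferases at heterochromatin (chr4:54957920-55096435), was at 509.9, 534 and 358 in Wildtype and 652, 592 and 731 in EVX1-Δfs. Zfp644, a partner of the H3K9 methyltransferases G9a and GLP (chr5:106929913-107126306), was at 531, 643 and 538 in Wildtype and 908, 639 and 821 in EVX1-Δfs. Zfp462 rose by 0.51 ± 0.14 (adjusted p = 0.0407, limma) and Zfp644 by 0.46 ± 0.13 (adjusted p = 0.0487, limma). Replicate 2 of Zfp644 did not rise, and its groups overlapped. Zfp644 stands outside the rule for named genes, which asked for 1 direction in all 3 same-numbered pairs, and was chosen after its values were seen.

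Zfp62 (chr11:49016794-49032318), of 25 fingers, was at 114, 128 and 93.9 in Wildtype and 152, 178 and 189 in EVX1-Δfs. Zfp770 (chr2:114019197-114027205), of 10 fingers, was at 114, 125 and 91.6 in Wildtype and 210.1, 134 and 172 in EVX1-Δfs. Both rose by 0.63 on the log2 scale (SE 0.17 and 0.18, adjusted p = 0.0354 and 0.0498, limma), and both lie below the median level of the members.

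Zfp185 (chrX:70232678-70276882) is a LIM-domain protein of the actin cytoskeleton and no C2H2 finger was found in it. It was at 151, 168 and 119 in Wildtype and 239, 205 and 212 in EVX1-Δfs, a rise of 0.59 ± 0.16 (adjusted p = 0.0366, limma). Zfp608 (chr18:55047699-55152245), in which 1 finger was found, was at 268, 247 and 274 in Wildtype and 358, 419.5 and 324 in EVX1-Δfs, a rise of 0.47 ± 0.14 (adjusted p = 0.0457, limma). The groups of both genes stayed apart. With the replicate number as a block none of these 6 genes passed, with adjusted p from 0.0694 (Zfp185) to 0.106 (Zfp644), and Zfp608 was not called when any 1 library was left out.

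Only Zfp628 and Zfp622 fell. Zfp628 (chr7:4866819-4873605), of 16 fingers, was at 406, 366 and 435 in Wildtype and 274, 261 and 225 in EVX1-Δfs, and every edited library lay under every Wildtype library. Its log2 fold change was -0.67 ± 0.13 (adjusted p = 0.00717, and 0.0330 with the replicate block, limma), and it was called in all 6 fits that left out 1 library. Zfp622, a factor of large ribosomal subunit maturation (chr15:25914121-25928237), was at 487, 439 and 576 in Wildtype and 319, 394 and 349 in EVX1-Δfs. It fell by 0.50 ± 0.13 (adjusted p = 0.0349, and 0.0752 with the block, limma), and was called in 2 of those 6 fits.

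Some uncalled genes moved as far. Zfp941 was 0.60 ± 0.23 higher (adjusted p = 0.121, limma), Zfp329 0.58 ± 0.19 higher (0.0698) and Zfp617 0.50 ± 0.17 higher (0.0816). Zfp428 differed by -0.70 ± 0.21 (adjusted p = 0.0582, limma) and Zfp526 by -0.51 ± 0.15 (0.0539). These 5 genes were picked after their values were seen, as the uncalled members more than 0.5 from 0. For Zfp428, a single EVX1-Δfs library stood far down, with 353, 323 and 466 in Wildtype and 316, 285 and 137 in EVX1-Δfs.

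The KRAB-box genes and the rest are described side by side, and the difference between both sets was not tested. The split rests on the box pattern, which missed Zfp445. How far other missed boxes would change the values below was not tested. Of the 53 KRAB-box genes, 45 had a log2 fold change above 0 and 8 below, with a median of 0.19, and 5 rose (9.43%, against 2.08% of all genes tested) and 0 fell. Of the 117 genes with no KRAB box found, 47 were above 0 and 70 below, with a median of -0.04, and 6 rose (5.13%) and 2 fell (1.71%, against 2.95% of all genes tested). The KRAB-box genes had a median exonic GC content of 44.8% and the others of 51.5%, against 50.3% over all genes tested. Their median levels were 169 and 330.4 and their median finger numbers 11 and 7.

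Bins of GC content gave different gaps between both sets. Up to 40% GC the median log2 fold change was 0.47 for 5 KRAB-box genes and 0.40 for 4 others. From 40% to 45% it was 0.26 for 22 KRAB-box genes and 0.25 for 18 others. From 45% to 50% it was 0.11 for 13 and 0.09 for 24. From 50% to 55% it was 0.02 for 10 and -0.08 for 28. From 55% to 60% the gap was widest, with 0.06 for 2 KRAB-box genes and -0.24 for 30 others, and above 60% it was -0.29 for 1 and -0.24 for 11.

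Fold changes of the 170 genes followed their GC content, and so did those of the whole table. Spearman's correlation between exonic GC content and log2 fold change was -0.77 across the 168 placed members and -0.46 across 12975 genes tested. It was -0.66 across the 53 KRAB-box genes and -0.75 across the 115 other placed members. Across the same 168 genes it was 0.19 with exon length and 0.13 with the number of fingers, and across all 170 it was -0.28 with the mean level. All of these are descriptions, since the genes share their 6 libraries.

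**Figure D2:**
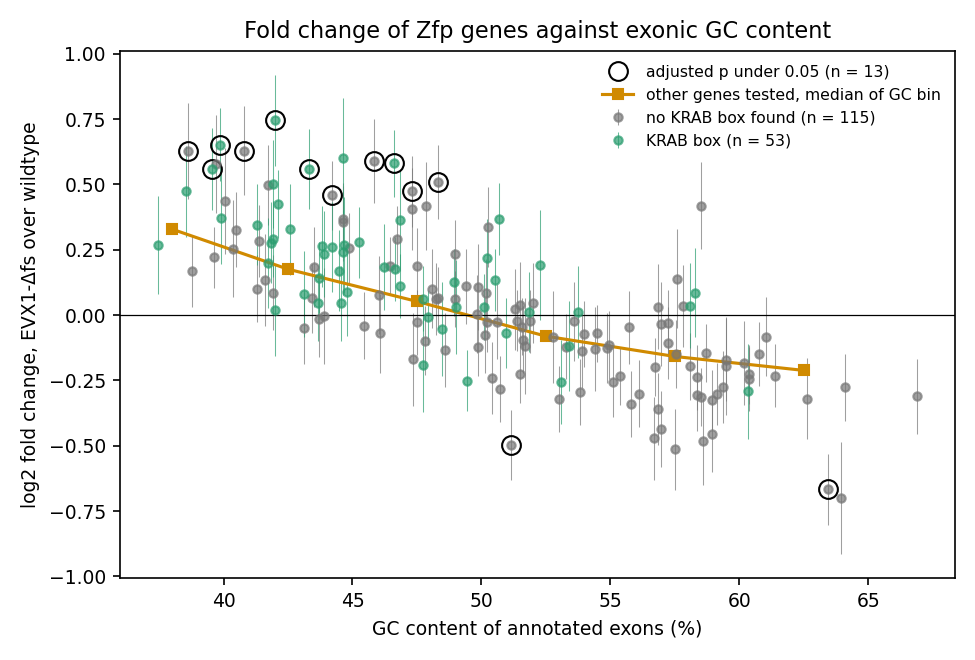
Log2 fold change (EVX1-Δfs over Wildtype) against GC content of the annotated exons for the 168 placed Zfp genes, with bars for the standard error, green for KRAB-box genes, rings for called genes, and squares for the median of the other genes tested in 6 GC bins. The 11 genes called higher lie under 50% GC, and the squares fall from 0.33 in the lowest bin to -0.21 in the highest.

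Up to 40% GC, all 9 members were above 0, 3 were called higher and the median was 0.47. The 543 other genes tested in that bin had a median of 0.33, and 9.21% of them were called higher. From 40% to 45%, 4 of 40 members were called higher with a median of 0.26, against 4.05% of 2321 other genes and a median of 0.18. From 45% to 50%, 4 of 37 were called higher with a median of 0.10, against 1.99% of 3320 and a median of 0.05. From 50% to 55%, from 55% to 60% and above 60%, 0 of 38, 0 of 32 and 0 of 12 members were called higher. Among the other genes of those bins the shares called higher were 0.812%, 0.578% and 0.693%.

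At the other end, 32 members between 55% and 60% GC had a median of -0.22 and the 12 above 60% a median of -0.26, while the other genes there had medians of -0.16 and -0.21. Zfp628, with 63.5% GC, was the 1 call among those 44 members, and 6.63% and 11.6% of the other genes of those bins were called lower. Zfp622 lies at 51.2% GC. Median GC content was 43.3% and median exon length 6283 bases among the 11 higher members, against 49.9% and 4126 bases over all members.

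When smooth trends in GC content and exon length were removed from each library, 1 member was called higher and 0 lower in limma (0.748% and 1.39% of 12975 genes). This fit held 168 of the 170 members, since Zfp383 and Zfp862 have no gene model. The call was Zfp317, at 46.6% GC, with a log2 fold change of 0.52 (adjusted p = 0.0273, and 0.0494 with the replicate block). Zfp871 was then at 0.53 (adjusted p = 0.0973, limma), Zfp266 at 0.36 (0.119) and Zfp628 at -0.46 (0.0531). With a trend in mean level removed too, the count was again 1 higher and 0 lower (0.848% and 1.09%), and with the block on GC and length trends it was 2 and 0 (0.516% and 1%). Zfp692, at 58.5% GC, went the other way: it was 0.42 ± 0.17 higher as deposited (adjusted p = 0.135, limma) and 0.58 higher with the trends removed (0.0618, and 0.0494 with the block). Zfp692 was chosen after its values were seen.

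After the trends were removed, Spearman's correlation with GC content was -0.30 across the 168 Zfp genes, against -0.01 across 12975 genes tested. It was -0.10 across the 53 KRAB-box genes and -0.25 across the 115 others. The medians were 0.17 in the lowest GC bin, 0.07 from 40% to 45% and -0.09 from 55% to 60%, where other genes had 0.01, -0.02 and -0.03. The median of the KRAB-box genes was 0.08 and that of the others -0.03. Over all members it was -0.01, so the sign of their median turned. The median over all genes tested moved down too, from 0.00 to -0.02, and stayed under that of the members.

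**Figure D3:**
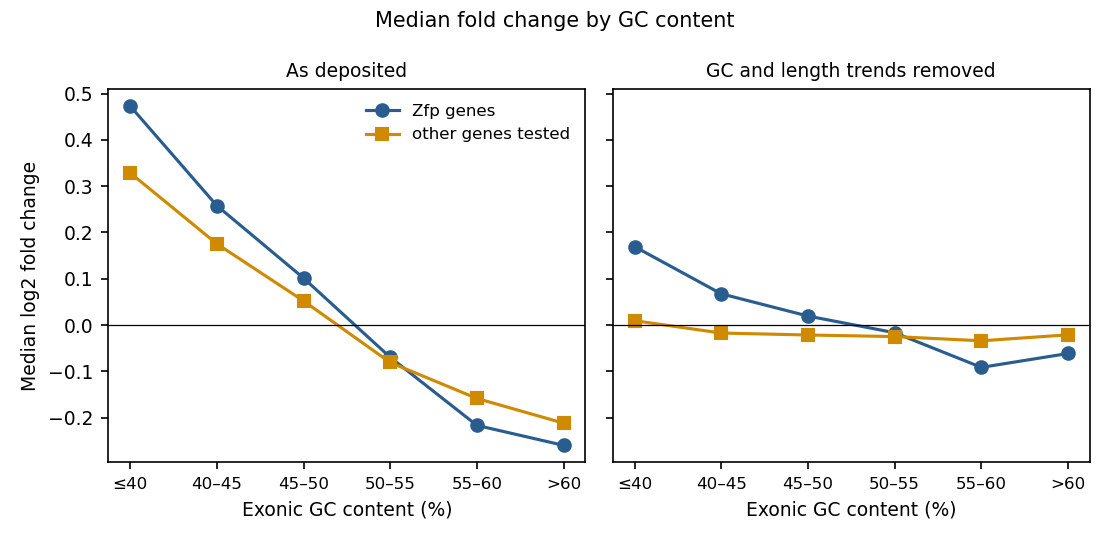
Median log2 fold change (EVX1-Δfs over Wildtype) in 6 bins of exonic GC content for the Zfp genes (circles) and the other genes tested (squares), as deposited (left) and with GC and length trends removed (right). Both lines fall on the left, from 0.47 to -0.26 and from 0.33 to -0.21, and on the right the other genes stay within 0.04 of 0 while the Zfp genes run from 0.17 to -0.09.

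The libraries differed in this composition inside each genotype as well. For the 49 members with up to 45% GC, the median log2 deviation from the mean of the 6 libraries was -0.14, -0.02 and -0.19 in Wildtype replicates 1 to 3 and 0.21, 0.02 and 0.20 in EVX1-Δfs. For the 44 members over 55% GC it was 0.18, 0.04 and 0.14 in Wildtype and -0.04, -0.04 and -0.21 in EVX1-Δfs. The replicate 2 libraries of the 2 lines lay near each other in both sets, and replicates 1 and 3 were far apart. The 2864 other genes tested with up to 45% GC moved with the same signs, at -0.13, -0.01 and -0.14 in Wildtype and 0.10, 0.05 and 0.16 in EVX1-Δfs. What produced this table-wide shift in composition was not tested.

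**Figure D4:**
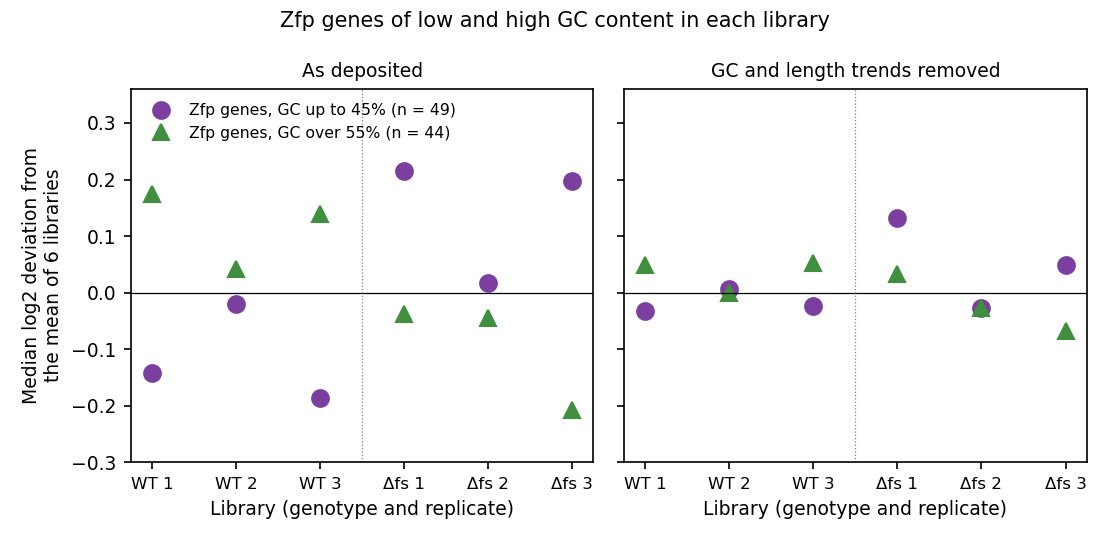
Median log2 deviation of Zfp genes with GC up to 45% (circles, n = 49) and over 55% (triangles, n = 44) from the mean of the 6 libraries, per library (WT, Wildtype; Δfs, EVX1-Δfs), as deposited (left) and with GC and length trends removed (right). On the left the low-GC genes run from -0.19 to 0.21, and on the right from -0.03 to 0.13, with EVX1-Δfs replicate 1 highest.

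Summed over the 170 genes, the levels were 72861, 72467 and 71604 in Wildtype and 74954, 71255 and 71712 in EVX1-Δfs, and the 2 ranges overlapped. The 53 KRAB-box genes summed to 13537, 13797 and 13053 in Wildtype and to 16139, 14236 and 15604 in EVX1-Δfs, where the lowest edited library (replicate 2) lay above the highest Wildtype library (replicate 2). The median log2 deviation of these 53 genes was also taken with GC and length trends removed. It was then -0.003, -0.02 and -0.05 in Wildtype and 0.16, -0.03 and 0.04 in EVX1-Δfs, and the groups overlapped.

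Per kilobase of exon the highest members were Zfp106 (mean of 509 per kb), Zfp330 (419.8), Zfp358 (398), Zfp828 (373) and Zfp259 (366). Zfp106, an RNA-binding protein needed in motor neurons, was at 5059, 5276 and 5416 in Wildtype and 6272, 5573 and 6111 in EVX1-Δfs. Its groups did not overlap, and the difference was 0.19 ± 0.11 (adjusted p = 0.323, limma). Opposite-strand exons cover 30.1% of its exons. Zfp828, also called CHAMP1 and a factor of kinetochore attachment, differed by -0.12 ± 0.11, and Zfp259, the ZPR1 protein, by -0.28 ± 0.13 (adjusted p = 0.536 and 0.180, limma). Zfp330 and Zfp358 differed by -0.04 ± 0.13 and -0.23 ± 0.11 (adjusted p = 0.881 and 0.230, limma).

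A list of 30 Zfp genes with known roles held 28 members, with a median log2 fold change of 0.07. Zfp462 and Zfp608 were called higher (2 genes, 7.14%, against 2.08% of all genes tested) and 0 lower (against 2.95%). Of the 2 listed genes that were no members, Zfp131 was at 0 in every library and Zfp638 was not found under that symbol. The imprint and retroelement factors were not called. Zfp57, which binds methylated imprinting control regions, was at 339.6, 367 and 347 in Wildtype and 347, 389 and 365 in EVX1-Δfs, with a difference of 0.06 ± 0.13 (adjusted p = 0.804, limma). Zfp445, also an imprint factor and counted without a box here, was 0.36 ± 0.15 higher (adjusted p = 0.152, limma), with Wildtype replicate 3 low at 673 beside 1029 and 1028. Zfp568, a repressor of the placental Igf2 promoter, was at 1853, 1865 and 1932 in Wildtype and 1813, 1862 and 1945 in EVX1-Δfs, and its difference of -0.01 ± 0.11 changed sign between scalings. Zfp809, which silences murine leukaemia virus sequences, differed by 0.26 ± 0.17 (adjusted p = 0.378, limma).

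Transcription factors of the list also missed the threshold. Zfp281, a factor of pluripotency exit, differed by -0.05 ± 0.14, Zfp143, a promoter and loop factor, by 0.25 ± 0.14, and Zfp148, which binds GC-rich boxes, by 0.25 ± 0.19 (adjusted p = 0.865, 0.262 and 0.429, limma). Zfp423 and Zfp521, large partners of EBF factors, differed by -0.15 ± 0.13 and 0.11 ± 0.16 (adjusted p = 0.522 and 0.739). Zfp217, bound to the CoREST complex, differed by -0.23 ± 0.11, with 2112, 2056 and 1775 in Wildtype and 1684, 1665 and 1719 in EVX1-Δfs (adjusted p = 0.220, limma). Zfp219 differed by -0.23 ± 0.12 (adjusted p = 0.253).

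Zfp592, Zfp687 and Zfp532, which act with ZMYND8, differed by -0.02 ± 0.12, -0.23 ± 0.11 and -0.03 ± 0.14 (adjusted p = 0.928, 0.194 and 0.938, limma). Zfp335, a chromatin factor of neural progenitors, was at 581, 530.1 and 565 in Wildtype and 469, 454 and 435 in EVX1-Δfs. Its groups were apart, with a difference of -0.30 ± 0.12 (adjusted p = 0.127, limma), and opposite-strand exons cover 28.3% of its exons. Zfp609, a partner of NIPBL, differed by -0.04 ± 0.11, Zfp292 by 0.33 ± 0.14 and Zfp318 by 0.19 ± 0.15 (adjusted p = 0.846, 0.173 and 0.463, limma).

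The RNA and ubiquitin or SUMO factors of the list were not called. Zfp598, the ubiquitin ligase of collided ribosomes, came nearest, at 977, 905 and 907 in Wildtype and 785, 785 and 662 in EVX1-Δfs. All 3 edited libraries were under the Wildtype ones, with a difference of -0.32 ± 0.12 (adjusted p = 0.0955, limma). Zfp36 (tristetraprolin), which speeds decay of AU-rich mRNAs, differed by -0.07 ± 0.13 and Zfp346, a double-stranded RNA binder, by 0.05 ± 0.15 (adjusted p = 0.772 and 0.889, limma). Zfp207, a mitotic BUB3 partner, differed by 0.22 ± 0.12, and Zfp326, of a splicing complex, by 0.17 ± 0.14 (adjusted p = 0.254 and 0.481, limma). The SUMO ligase Zfp451 and the ubiquitin ligase Zfp91 differed by 0.09 ± 0.14 and 0.19 ± 0.15 (adjusted p = 0.765 and 0.491, limma).

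Some of the Zfp genes lie close together on a chromosome. With 3 or more members whose starts lay at most 500 kb apart, 12 clusters held 58 of the 170 members. Their median log2 fold change was 0.03, as for the 112 members outside clusters, and 3 of the 11 higher calls and 1 of the 2 lower calls fell in them. The highest median was on chromosome 9 (20237416 to 20325861), where Zfp26 and Zfp266 were called and Zfp426 differed by 0.05, with a median of 0.56 and a GC content of 39.9%. With GC and length trends removed that median was 0.23.

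On chromosome 8 (71750242 to 72315077) all 4 members, Zfp930, Zfp868, Zfp869 and Zfp866, were above 0, with a median of 0.31 at 43.5% GC. The lowest medians were those of GC-rich clusters. On chromosome 6 (47827203 to 48573226) 7 genes had a median of -0.24 at 56.1% GC, and on chromosome 7 (134376575 to 135029510) 9 genes had a median of -0.24 at 57.3% GC, with 1 gene above 0 in each. A second group on chromosome 7 (4866819 to 4984740), with Zfp628 in it, had a median of -0.23 at 61.8% GC. With trends removed these 3 medians were -0.07, -0.06 and -0.04.

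**Figure D5:**
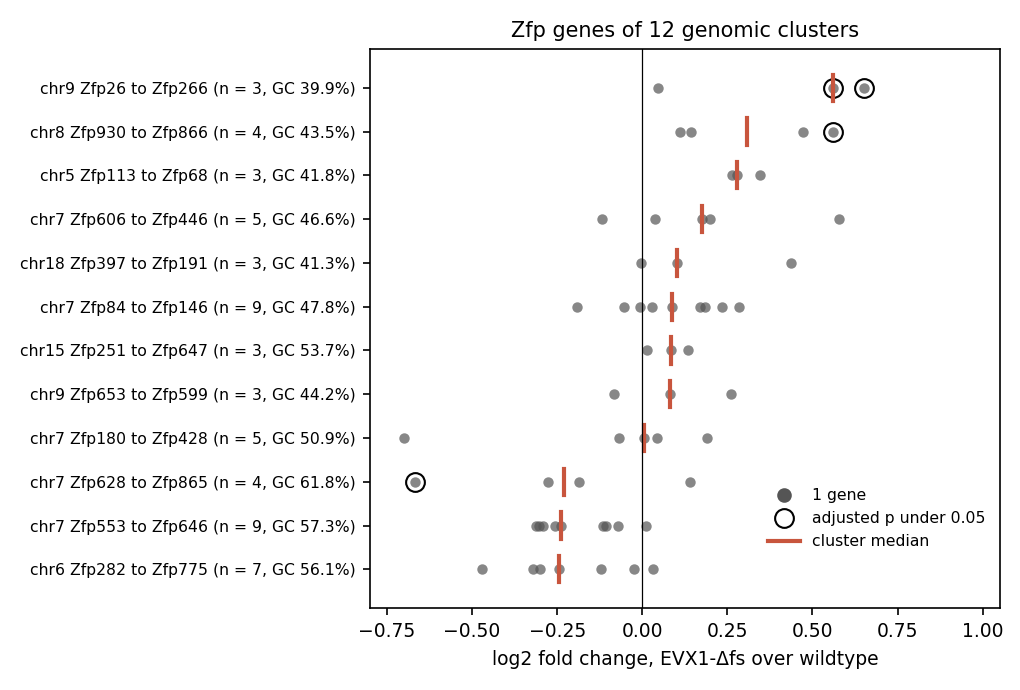
Log2 fold change (EVX1-Δfs over Wildtype) of the 58 Zfp genes in 12 genomic clusters, 1 row per cluster named by its end genes, with the number of genes and their median exonic GC content. Points are genes, rings are called genes and red bars are cluster medians, which run from 0.56 on chromosome 9 to -0.24 on chromosome 6.

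KRAB-box factors work through TRIM28, SETDB1, HP1 and chromatin complexes around them. The 25 genes listed for such proteins were all tested and had a median log2 fold change of -0.03. Of these, 1 was higher (4%, against 2.08% of all genes tested) and 0 were lower (against 2.95%). Cbx5, which encodes HP1α, was at 748, 879.6 and 779.8 in Wildtype and 1006, 1168 and 1039 in EVX1-Δfs. It rose by 0.42 ± 0.12 (adjusted p = 0.0383, limma), and the adjusted p was 0.0612 with the replicate block and 0.358 with GC and length trends removed. Trim28, the corepressor itself, was at 14349, 13161 and 15260 in Wildtype and 14488, 13016 and 12166 in EVX1-Δfs, a difference of -0.11 ± 0.13 (adjusted p = 0.650, limma). Setdb1 differed by -0.07 ± 0.11 (adjusted p = 0.742), and Atrx, a chromatin remodeller at silenced repeats, by 0.50 ± 0.21 (adjusted p = 0.145), with a wide spread in both groups.

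Other zinc finger families were taken with the same minimum level. The shares called higher were 6.25% (1 of 16), 8.33% (2 of 24) and 5.56% (1 of 18) in the Zscan and Zkscan, the Zbtb, and the Klf and Sp genes. Over all genes tested the share was 2.08%, and over those with a mean of at least 100 it was 2.22%. Among 16 Zscan and Zkscan genes, whose SCAN domain pairs zinc finger proteins, Zkscan8 rose by 0.57 ± 0.16 (adjusted p = 0.0397, limma) and the median was 0.01. Among 24 Zbtb genes, whose BTB domain binds corepressors, Zbtb26 rose by 0.57 ± 0.16 and Zbtb44 by 0.42 ± 0.12 (adjusted p = 0.0377 and 0.0489, limma), and the median was 0.05. Among 18 Klf and Sp genes, factors with 3 fingers that bind GC boxes, Klf6 rose by 0.53 ± 0.12 (adjusted p = 0.0149, and 0.0388 with the replicate block, limma), with a median of 0.20. No gene of these families was called lower, against 2.95% of all genes tested and 3.77% of those with a mean of at least 100. With GC and length trends removed none was called, against 0.748% higher and 1.39% lower over all genes in that fit. Whether the families differ from the Zfp genes was not tested.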

How the data were processed

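Poly(A)-selected RNA of 6 D4 EB samples was sequenced on an Ion Proton. Per the labels and methods, the authors mapped reads to mm9 with TopHat2 and then TMAP, counted them per gene with HTSeq at standard settings and used DESeq2. Tool versions and the gene annotation were not given in the sources used here. The deposited values are a signal, read counts divided by 1 factor per library: 100% of values above 0 were whole multiples of 1 read within 0.001 (largest distance 0.000101), so counts could be recovered. Values were tested with limma 3.58.1 (R 4.3.3, mean-variance trend) on log2(value + 1), for 13136 genes with a value of at least 10 in at least 3 libraries. A fold change on this scale understates that of low genes.

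Alternatives were pseudocounts of 4 and 16, no filter, TMM and upper-quartile scaling, edgeR 4.0.16 and DESeq2 1.42.0 on recovered reads, removal per library of GC, length and level trends (natural splines, 5 degrees of freedom), the replicate block, and leaving out each library. Per the labels compared samples were set up together, and per the methods each replicate on another day. That equal numbers mark a shared day was inferred from both. Deviations of same-numbered samples from the group means correlated at 0.111, 0.00933 and -0.101 across the 13136 genes.

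Members and lists were chosen with earlier results of these data known. Genes were named as the called members with 1 direction in all pairs, the 5 highest per kilobase, those next to the level limit, and lists of known roles, KRAB partners and other zinc finger families. Gene models, GC content (union of exons), proteins and sequences came from GENCODE M1 on NCBIM37, and KRAB boxes and fingers from patterns in the translated proteins, in place of the RefSeq proteins first planned. The KRAB pattern was broadened after a stricter one missed known KRAB genes such as Zfp568. The limma and edgeR scripts were tested on simulated data.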

Additional observations from a re-analysis of the deposited data

How the results depend on the processing

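Pseudocounts of 4 and 16 and TMM scaling kept the same 11 higher and 2 lower Zfp genes, while edgeR and DESeq2 added Zfp655 to the higher ones and upper-quartile scaling added Zfp655 and Zfp277. With no filter 5 were higher, 1 of them without a KRAB box. With the replicate block, limma and edgeR each called 2 higher (both KRAB-box genes, 0 without the box) and 1 lower, and DESeq2 called 3 and 1. With GC and length trends removed the counts were 1 and 0, and removing the level trend as well left 1 and 0. Adding the block to those fits gave 2 (of which 1 had a KRAB box) and 0, or 1 and 0 with the level trend. Leaving out single libraries gave 1 to 13 higher, 1 to 3 lower, 1 to 7 KRAB-box and 0 to 6 other higher calls. KRAB partners had 0 calls under every block and trend setting and 0 to 2 when a library was left out. Other families had 1 call with no filter and under each block (limma, edgeR, DESeq2), 0 with GC and length trends removed in both designs, 2 and 1 with the level trend as well, and 0 to 5 when a library was left out. The median log2 fold change of the Zfp genes was 0.072 with upper-quartile scaling and -0.0070 with GC and length trends removed, also under the block. With those trends removed the median over all genes tested was -0.0227.

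Signs turned for uncalled named genes only. With GC and length trends removed, in both designs, the log2 fold change was -0.049 for Zfp148, -0.084 for Zfp207, -0.17 for Zfp326, 0.033 for Zfp36, -0.21 for Zfp451, -0.028 for Zfp91 and 0.022 for Trim28. With the level trend as well it was 0.032 for Zfp358, -0.072 for Zfp148, -0.12 for Zfp326, 0.092 for Zfp36, 0.039 for Zfp219, 0.0081 for Zfp423, -0.19 for Zfp451, -0.046 for Zfp91, 0.047 for Zfp592, 0.026 for Zfp609 and 0.16 for Trim28. Upper-quartile scaling gave 9.08e-05 for Zfp330, 0.032 for Zfp568, 0.016 for Zfp592 and 0.015 for Zfp532, and Zfp568 was at 0.0040 under TMM, 0.0046 in edgeR and 0.0040 in edgeR with the block. Over the fits that left out 1 library, values ran over -0.16 to 0.060 for Zfp330, -0.0099 to 0.37 for Zfp94, -0.035 to 0.015 for Zfp568, -0.13 to 0.040 for Zfp281, -0.20 to 0.021 for Zfp36, -0.020 to 0.15 for Zfp451, -0.11 to 0.050 for Zfp592, -0.14 to 0.088 for Zfp532, -0.054 to 0.15 for Zfp346 and -0.11 to 0.016 for Zfp609. Among the 18 called genes named, 175 of 360 values kept their call, and 185 lost it with the direction kept. The causes of these changes were not tested. Standard errors of the called Zfp genes ran from 0.13 to 0.18 on the log2 scale at 3 libraries per group.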

Other observations

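The Zfp symbols under the minimum mean were GC-poor. Of these 161, 5 were at 0 in all libraries and 128 were tested. Their median log2 fold change was 0.32 at a median GC content of 42.8%, and 106 were above 0 and 22 below. Of the 128, 1 was called higher (0.781%, against 2.08% of all genes tested) and 0 lower in limma. An unadjusted p under 0.05 was found for 22 of the 128, against 3028 of the 13136 genes tested. The 1 call was Zfp367, named after its values were seen. With GC and length trends removed the median was 0.17 and 0 were called.

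Zfp42 (Rex1), a marker of naive pluripotency that was left out of the Zfp genes above, stood at 339, 343 and 452 in Wildtype and 537, 466 and 535 in EVX1-Δfs. All 3 edited libraries lay above the Wildtype ones, with a log2 fold change of 0.45 ± 0.13 (adjusted p = 0.0544, limma). The adjusted p was 0.0434 in edgeR and 0.0442 in DESeq2, and in limma 0.0796 with the replicate block and 0.109 with GC and length trends removed. Zfp703, also left out of the Zfp genes above, went down. It was at 1038, 1274 and 1123 in Wildtype and 621, 615 and 522 in EVX1-Δfs. Its log2 fold change was -0.96 ± 0.12 (adjusted p = 6.5e-05, limma). In limma the adjusted p was 0.00289 with the replicate block and 0.000446 with GC and length trends removed.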
